A study of Mus musculus with 72 samples.

Results

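The Crym Trh Pet1 neurons described here are 240 cells out of the 2350 Pet1 neurons of the mouse dorsal raphe profiled by droplet single-cell RNA-seq, or 10.2% of them. They were selected on the measured values of 6 genes, by the mean z-score of Crym, Asb4, St8sia2, Trh, Wfdc12 and Clic1 after scaling each cell to 10000 UMIs (unique molecular identifiers, each standing for 1 captured transcript) and taking log(1 + x), and the 240 cells with the highest mean were kept. The other 2110 cells are the comparison. Pet1 (Fev) is the transcription factor that marks the serotonergic lineage, and all cells were sorted for a fluorescent reporter that depends on Pet1-Flpe. The droplet table pools cells from mice labelled Pet1::Flpe+/-; hM3Dq+/+, which express EGFP in all Pet1 neurons because no Cre was used (mean age postnatal day 65.5), with cells from mice carrying En1-cre, Pet1-Flpe and the dual reporter RC-FrePe, in which EGFP marks only Pet1 neurons of the En1 lineage (mean age postnatal day 59). Several mice were pooled per genotype, the columns name no animal, and their barcode endings split the cells into 2 sets (869 and 1481 cells) that no label ties to a genotype, so set, genotype, sex and run cannot be told apart. The second experiment holds 70 manually sorted cells that are triple transgenic for Pet1-Flpe, RC-FrePe and a Cre driver: 10 dorsolateral, 9 dorsomedial, 8 ventromedial and 6 caudal cells with Slc6a4 (Sert)-cre at postnatal days 63 and 90 (the caudal cells at day 63 only), plus cells marked with Npy2r-cre (9 rostral and 10 caudal, days 77 and 87), Crh-cre (8 rostral, days 83 and 119) and P2ry1-cre (10 caudal, days 62 to 74). In these animals EGFP needs both Cre and Flpe, so it marks a cell by its history of recombinase activity and not by its present expression.

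Trh encodes the precursor of thyrotropin-releasing hormone, a tripeptide amide known as the hypothalamic signal to the thyroid axis and also used as a neuropeptide in the brainstem, where serotonin neurons are a known source. Crym encodes mu-crystallin, a cytosolic protein that binds thyroid hormone. Asb4 is an ankyrin repeat and SOCS-box protein that recruits substrates to cullin 5 ubiquitin ligases, St8sia2 is a polysialyltransferase that modifies the neural cell adhesion molecule NCAM, Wfdc12 belongs to the whey acidic protein family of protease inhibitors, and Clic1 is a chloride intracellular channel protein. The dorsal raphe holds most of the serotonin neurons that project to the forebrain, and its subtypes differ in the peptides, receptors and co-transmitters that they add to the serotonergic programme.

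The 6 genes lie on 4 chromosomes of mm10 (GENCODE M21): Trh at chr6:92242061-92244650 on the minus strand, Asb4 at chr6:5383386-5433022 on the plus strand, Crym at chr7:120186380-120202111 and St8sia2 at chr7:73939119-74013690 on the minus strand, Wfdc12 at chr2:164189231-164190608 on the minus strand and Clic1 at chr17:35049966-35058749 on the plus strand. St8sia2 and Wfdc12 each overlap another annotated transcript on the opposite strand. The promoters of Trh and of Thrsp, the thyroid hormone responsive gene that was among the 12 highest genes of the members below, are shown because both genes are tied to the thyroid axis. Each is 300 bases, from 250 before to 50 after the start, printed 5′ to 3′ along the gene (RefSeq, GRCm38.p6, minus strand, chr6:92244601-92244900 for Trh and chr7:97417501-97417800 for Thrsp). Capitals mark the nuclear receptor motif AGGTCA on either strand.
Trh: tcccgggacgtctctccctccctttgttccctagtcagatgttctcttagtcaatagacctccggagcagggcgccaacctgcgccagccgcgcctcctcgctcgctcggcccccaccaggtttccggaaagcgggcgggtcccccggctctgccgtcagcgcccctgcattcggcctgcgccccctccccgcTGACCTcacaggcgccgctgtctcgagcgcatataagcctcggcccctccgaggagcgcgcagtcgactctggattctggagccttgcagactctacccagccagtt
Thrsp: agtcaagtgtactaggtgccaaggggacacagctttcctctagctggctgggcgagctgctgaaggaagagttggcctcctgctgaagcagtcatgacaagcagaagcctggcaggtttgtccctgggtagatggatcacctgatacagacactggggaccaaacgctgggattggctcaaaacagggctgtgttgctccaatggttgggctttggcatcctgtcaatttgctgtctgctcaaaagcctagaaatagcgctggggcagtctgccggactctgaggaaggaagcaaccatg
The Trh promoter held 1 match, on the opposite strand, beginning at base 194 of the window, and the Thrsp promoter held 0. Of 27025 promoters of this length, 16.0% held at least 1 match, so the letters are common. The cyclic AMP response element TGACGTCA, held by 1.88% of promoters, was in neither window. These are matches of letters only and say nothing about binding.

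The score fell without a gap from 3.16 in the first cell to 1.13 in the last member, and the first cell outside stood at 1.12. Within 0.1 of the cut there were 34 members and 34 other cells. The members are thus a range cut from a continuous score, and whether they form a separate type was not tested. The median mean z was 1.55 in the members and -0.34 in the other cells. By construction the rule genes were high in the members, and their levels are given only to describe the choice. Trh stood at 110 CPM of summed UMIs in the members (CPM is the share of all UMIs scaled to a fixed total, 95% Poisson interval 104 to 116) and 4.55 CPM (4.18 to 4.95) in the other cells. Crym stood at 81.4 CPM (76.6 to 86.5) and 5.82 CPM (5.40 to 6.27). Asb4 was at 627 against 128 CPM, Wfdc12 at 264 against 83.0 CPM, Clic1 at 142 against 22.1 CPM and St8sia2 at 106 against 26.7 CPM. These intervals, and all intervals below, cover counting error only. The levels of Trh were 137 and 80.8 CPM in the members of barcode sets 1 and 2, and those of Crym 85.4 and 77.1 CPM.

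**Figure D1:**
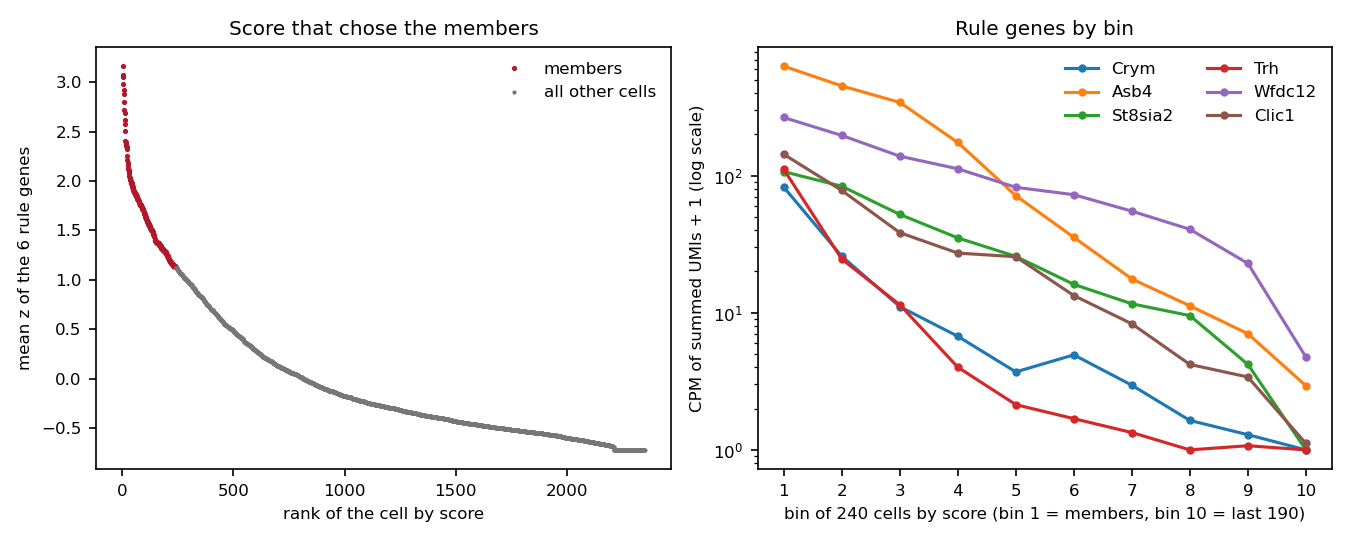
Left, mean z of the 6 rule genes (vertical axis) against the rank of each cell, with members in red and other cells in grey. Right, level of each rule gene (CPM of summed UMIs plus 1, log axis) in successive bins of 240 cells ordered by the score, the last holding 190 cells; Trh drops from 110 CPM in bin 1 to 23.6 CPM in bin 2, and the score crosses the cut without a break.

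Cells did not share the 6 genes evenly. At least 1 UMI of all 6 genes was found in 134 members, of 5 genes in 91 and of 4 genes in 15, whereas 42 of the other cells held all 6. A Trh UMI was found in 185 members (77.1%) and 234 other cells (11.1%), and a Crym UMI in 200 members and 361 other cells. Both were present in 150 members, Trh alone in 35, Crym alone in 50 and neither in 5. After each cell was thinned to 20000 UMIs, the share with Trh was 64.0% in members and 5.63% in other cells. Within the members, single cells ranged from 0 to 1100 CPM of Trh with a median of 58.4 CPM. Asb4 was the only rule gene with a UMI in every member, from 71.7 to 1920 CPM.

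The members made up 126 of the 869 cells of barcode set 1 (14.5%, Clopper-Pearson interval 12.2 to 17.0%) and 114 of the 1481 cells of set 2 (7.70%, 6.39 to 9.17%). These intervals count cells of 1 pool per set, so a difference between the sets was not tested. The members had a median of 54916 UMIs (14594 to 106612) and 7558 genes per cell, against 60703.5 UMIs (12320 to 134079) and 7762 genes in the other cells. Mitochondrial genes took a median of 5.25% of a member's UMIs and 6.61% of another cell's, and ribosomal protein genes 10.2% and 9.62%. No 16-base barcode occurred under both endings. Scrublet called 12 of the 2350 cells as doublets (0.511%), and 0 of them were members.

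The members carried the serotonergic markers of the lineage. Every member held UMIs of Fev, of Tph2 (the rate-limiting enzyme of brain serotonin synthesis), of Slc6a4 (the serotonin transporter) and of Slc18a2 (the vesicular monoamine transporter). So did 100%, 99.5%, 98.1% and 99.1% of the other cells in the same order. Cells with little Fev had been removed from the table beforehand. Median levels over member cells were 451 CPM for Fev, 2164 CPM for Tph2, 2278 CPM for Slc6a4 and 3048 CPM for Slc18a2, against 306, 2647, 2233 and 2208 CPM over the other cells. Of 15 genes of serotonin synthesis, transport and breakdown, 15 were tested and only Pcbd1, which recycles the pterin cofactor of tryptophan hydroxylase, reached 1.5-fold, at 385 against 257 CPM (0.59), and it was under that fold within each barcode set (0.54 and 0.58). Gch1, the entry enzyme of pterin synthesis, stood at a log2 ratio of 0.52 (0.49 to 0.56), Slc18a2 at 0.41 and Tph2 at -0.31. The median log2 ratio of this list was 0.02, beside 0.0023 over all 10401 genes tested, of which 3.08% were higher and 6.9% lower by 1.5-fold. None of the 8 tested identity transcription factors reached 1.5-fold (of 12 in the list). Fev was at 0.50 and the isthmus and rhombomere 1 factors En1 and En2 at 0.44 and 0.51.

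Genes were compared between the members and all other cells where at least 50 UMIs were expected in the members, with the 6 rule genes left out. Since the cells were chosen on this same table, the genes that follow describe the chosen cells and no test was made. By a 1.5-fold change in summed CPM, 320 of 10401 genes (3.08%) were higher and 718 (6.9%) were lower in the members. The lower genes reached farther, with 375 genes at 2-fold against 110 higher, 156 at 4-fold against 6, and 50 at 16-fold against 0. These counts leave out the 6 rule genes, which were all higher. The filter uses the level over all cells, so a gene found mainly in the other cells passes it more easily. The higher and lower sides were therefore not held to the same limits. Of the 320 higher genes, 319 were above the other cells in both barcode sets, and all 718 lower genes were below in both.

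The 12 genes with the highest ratios after the rule genes differ widely in what they are known for. Pde5a, a phosphodiesterase that breaks down cyclic GMP, was at 22.9 CPM in the members of barcode set 1 and 14.4 CPM in those of set 2, against 4.10 and 2.89 CPM in the other cells, a log2 ratio of 2.52 (2.28 to 2.75) overall. Hspb1, the small heat shock protein Hsp27, stood at 81.8 and 131 CPM against 16.5 and 21.0 CPM, a log2 ratio of 2.43 (2.34 to 2.53). In both genes the members of either set stood above the other cells of either set. Arhgap36, an X-linked protein that inhibits the catalytic subunit of protein kinase A, stood at 160 and 547 CPM against 41.9 and 103 CPM (2.06, 2.01 to 2.11), so its level differed between the sets as well as between the cells. Crip1, a small LIM-domain protein, was at 130 against 35.4 CPM (1.88, 1.80 to 1.96). Fxyd5, a regulator of the sodium pump, was at 14.6 against 3.15 CPM (2.21, 1.95 to 2.47). Ngb, the oxygen-binding neuroglobin, was at 24.3 against 5.48 CPM (2.15, 1.95 to 2.35).

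Igsf1, an X-linked membrane glycoprotein whose loss causes central hypothyroidism in people, was at 33.6 against 8.16 CPM (2.04, 1.88 to 2.20) and had a UMI in 72.9% of members and 26.6% of the other cells. Thrsp, the thyroid hormone responsive gene Spot14, was at 21.1 against 5.84 CPM (1.85, 1.65 to 2.06). Il4, which encodes interleukin 4, and Il4ra, a subunit of its receptor, were both among the 12, at 20.9 against 5.82 CPM (1.85, 1.64 to 2.05) and 21.5 against 6.08 CPM (1.82, 1.62 to 2.02). These are low levels, with Il4 at a median of 17.7 CPM over member cells and 31.8% of members holding a UMI after thinning, against 8.49% of the other cells. Kcns1, a silent subunit of voltage-gated potassium channels, was at 12.7 against 3.46 CPM (1.88, 1.61 to 2.14). Apol9b, an apolipoprotein L, was at 12.4 against 3.19 CPM (1.96, 1.69 to 2.23), and it is uncertain because Apol9a is a near-identical copy to which reads may be assigned. Il4ra and Pde5a each overlap an annotated transcript on the other strand, which the droplet library separates by strand and the full-length library does not.

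**Figure D2:**
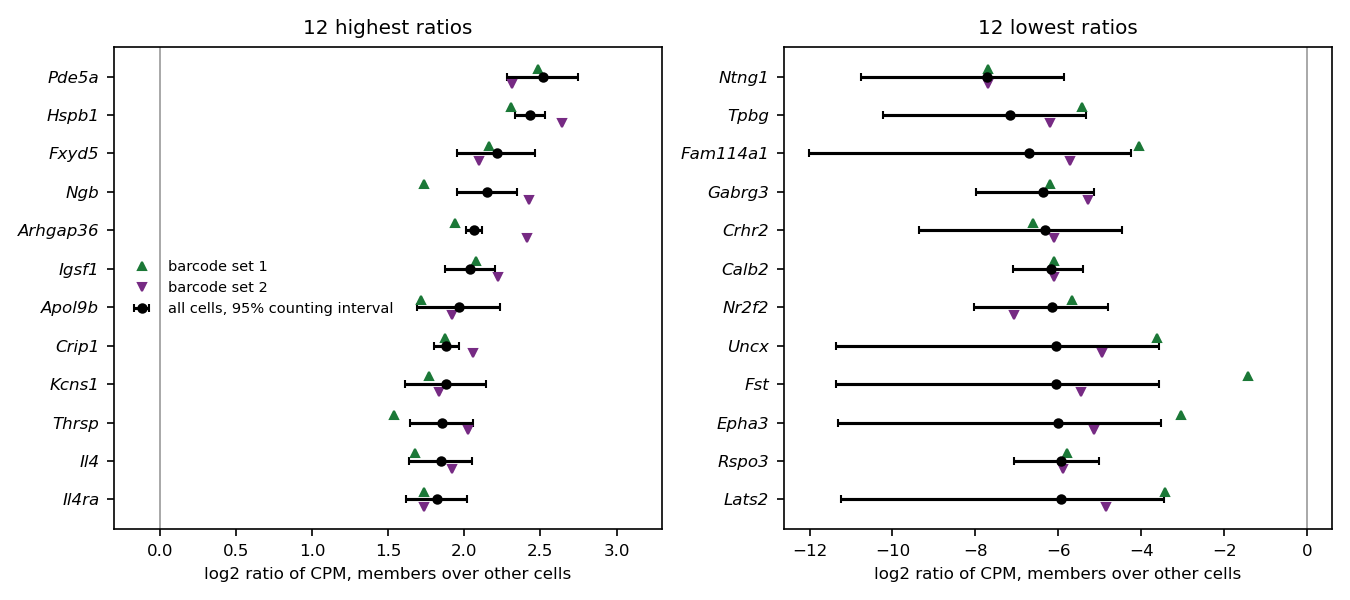
Log2 ratio of CPM in the members over the other cells (horizontal axis) for the 12 highest and the 12 lowest genes, with 95% counting intervals for all cells (black) and the ratio within each barcode set (triangles). The 12 highest lie between 1.82 and 2.52, and the lowest between -7.72 and -5.93, with wide intervals where the members held 1 or 2 UMIs.

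The 12 lowest genes had between 1 and 13 UMIs in all members, and a UMI in 9.10% (Fst) to 50.9% (Gabrg3) of the other cells. Ntng1, which encodes the axonal adhesion protein netrin-G1, had 2 UMIs over all 240 members and 32.5 CPM in the other cells (log2 ratio -7.72, -10.76 to -5.86). Tpbg, a trophoblast glycoprotein, also had 2 UMIs, against 22.3 CPM (-7.18, -10.22 to -5.32), and the receptor Crhr2 for corticotropin-releasing factor peptides had 2 against 12.3 CPM (-6.31, -9.36 to -4.46). Calb2, the calcium-binding protein calretinin, was at 1.00 against 72.8 CPM (-6.18, -7.09 to -5.41), and at 0.886 and 1.13 CPM in the members of sets 1 and 2 against 61.4 and 78.6 CPM. Gabrg3, a GABA-A receptor subunit, was at 0.386 against 31.7 CPM, Nr2f2, the orphan nuclear receptor COUP-TFII, at 0.309 against 22.0 CPM, and Rspo3, a secreted Wnt pathway agonist, at 0.695 against 42.7 CPM. Fam114a1, Uncx, Fst, Epha3 and Lats2 had 1 UMI each in the members. The ratio of Fst, which encodes the activin inhibitor follistatin, was -6.06 (-11.36 to -3.57) over all cells, and in set 1 the members had 0 UMIs and the other cells were at only 1.20 CPM. Slc35f4, named after its values were seen, was the lower gene with 0 UMIs in the members. A count of 0 allows up to 0.232 CPM there, so its level of 6.22 CPM in the other cells was at least 26.8-fold higher.

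The genes that distinguish neurotransmitter phenotypes did not move together. Slc17a8, the vesicular glutamate transporter VGLUT3 that is carried by many dorsal raphe neurons, was at 3.25 and 8.58 CPM in the members of sets 1 and 2 and at 176 and 174 CPM in the other cells (log2 ratio -4.91, -5.26 to -4.59). It had a UMI in 21.3% of members and 68.3% of the other cells, or 12.3% and 58.7% after thinning. Gad1, a GABA-synthesizing enzyme, was at 74.6 and 108 CPM against 38.7 and 45.6 CPM (1.06, 0.97 to 1.16), while the other isoform Gad2 was at 106 against 114 CPM (-0.11, -0.19 to -0.03). Medians over cells ran otherwise for Gad2, at 79.3 CPM in members and 34.4 CPM in the other cells, with a UMI in 89.2% and 56.4%. The vesicular GABA transporter Slc32a1 had 0 UMIs in the members. In the list of 8 tested genes of GABA and glutamate transmission, 2 were higher and 1 lower, with a median of -0.05. Over all tested genes, 3.08% were higher and 6.9% lower.

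Peptide genes other than Trh were mostly low. Of 10 tested peptide precursors 8 were lower and 0 higher by 1.5-fold, with a median log2 ratio of -2.73, where 6.9% of all tested genes were lower and 3.08% higher. Crh, the corticotropin-releasing hormone precursor, had 3 UMIs in the members (-5.53, -7.81 to -3.98), Nts (neurotensin) stood at -5.15, Penk (enkephalins) at -4.27 and Pdyn (dynorphins) at -3.74. Penk had 4 UMIs in the members, and its ratio was -6.41 within barcode set 1 and -2.44 within set 2, where the other cells were at 12.6 and 2.63 CPM. Nucb2, which encodes nesfatin-1, was at 0.48 and Nmb (neuromedin B) at -0.32. Among 22 tested genes of peptide processing and dense-core granules, 2 were higher and 2 lower, with a median of 0.07. Pam, the enzyme that amidates peptides such as TRH at the carboxyl end, was at 846 and 861 CPM in the members of the sets against 460 and 443 CPM in the other cells (0.93, 0.90 to 0.96). Pcsk6, a proprotein convertase, was at 77.2 against 39.6 CPM (0.96, 0.86 to 1.06). Cpe, the carboxypeptidase that trims prohormones, was at 328 against 562 CPM (-0.78, -0.82 to -0.73). Vgf, a granule protein, was at 101 and 63.1 CPM against 132 and 151 CPM (-0.80, -0.89 to -0.71), and its ratio within set 1 was -0.38. The convertases Pcsk1 and Pcsk2, which cut TRH precursor, stood at 0.32 and 0.09.

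The wider thyroid and TRH lists gave few genes past the fold. Of 15 tested genes of thyroid hormone transport, metabolism and action, Thrsp was the only one called, and the list median was -0.03. Among all tested genes 3.08% were higher and 6.9% lower. The receptor Thra stood at -0.03, the nuclear receptor partner Rxra at 0.31, Rxrg at -0.52 (-0.96 to -0.10) and the hormone-responsive factor Klf9 at -0.32. For the TRH receptor Trhr, the members had 0 UMIs and the other cells 19. Pgpep1, a pyroglutamyl peptidase that can open TRH, was at 26.4 against 16.9 CPM (0.64, 0.47 to 0.81), just under the fold within barcode set 1 (0.58), and Prep, a prolyl peptidase, at -0.26 (-0.62 to 0.07). Trhde, the ectoenzyme that degrades TRH, had 1 UMI in the members and 225 in the other cells and was not tested.

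Transcription factors known from raphe subtypes went both ways. Of 24 tested, 7 were higher and 15 lower (median -0.95), beside 3.08% and 6.9% of all tested genes. Nr2f2, Zeb2, Foxa1 and Maf were the lowest, at -6.15, -5.43 (-7.71 to -3.88), -4.71 (-7.00 to -3.16) and -4.53. Among those above were Sox14 at 29.7 against 9.54 CPM (1.64, 1.47 to 1.80), Pax5 at 98.2 against 37.2 CPM (1.40, 1.31 to 1.49), Klf5 (1.39), Nfix (1.09) and the glucocorticoid receptor gene Nr3c1 (0.59). Of 37 markers of other Pet1 neuron groups, 30 had a median of 0 CPM over member cells, and 28 of the same 37 over the other cells. The 7 with a median above 0 were Prkcq (128 CPM), Col25a1 (198 CPM), Phlda1 (98.9 CPM), Hcrtr1 (77.3 CPM), Gad1 (64.8 CPM), Sox14 (20.5 CPM) and Cxcl14 (15.4 CPM). Their medians in the other cells were 0, 143, 39.8, 31.5, 0, 0 and 0 CPM.

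The receptor and channel lists are read beside the 3.08% of all tested genes that were higher and the 6.9% that were lower. Of 32 tested G protein-coupled receptor genes 18 were lower and 5 higher (median -0.87). Among the higher were the adrenergic receptors Adra2a (33.1 against 13.1 CPM, 1.34, 1.18 to 1.49), Adra1a (1.05) and Adra2c (0.59) and the histamine receptor Hrh1 (0.83), and Htr1a, the serotonin autoreceptor, stood at -0.37. The lowest were Crhr2, P2ry1 (-4.95, -8.00 to -3.09), Grm8 (-4.61) and Htr5b (-4.26). Of 28 ionotropic receptor genes 11 were lower and 0 higher, led by Gabrg3 (-6.36), the NMDA receptor subunit Grin2a (-3.88), Gria3 (-3.24) and Gabre (-2.19). Of 71 tested channel genes 20 were lower and 3 higher. The 3 were the potassium channel genes Kcns1, Kcnt2 (0.83) and Kcna5 (0.80), and the lowest were Cacng5 (-5.08), Kcnip1 (-3.46), Kcnc2 (-2.12) and Kcna4 (-1.95).

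Surface and matrix genes are given by family, beside the 3.08% of all tested genes that were higher and the 6.9% that were lower. Axon guidance genes were lower in 16 and higher in 2 of 44 tested. The 2 were the ephrin receptor Ephb1 (17.8 against 5.76 CPM, 1.63, 1.40 to 1.84) and the Slit receptor Robo1 (0.68). The semaphorin receptor Nrp2 (-5.25, -7.13 to -3.89) and the ligand Sema3e (-4.98, -7.26 to -3.43) were among the lowest. Of 71 cadherins, protocadherins and synaptic organizers 26 were lower and 6 higher, from Pcdh11x at -5.46 and Cbln2, a secreted synapse organizer, at -5.36 to Cdh4 at 1.03 and Cdh13 at 0.99. In the family of the rule gene St8sia2, 4 of 16 tested sialyltransferases and carriers were lower and 0 higher. St8sia4, the other main polysialyltransferase, was at 2.32 against 8.79 CPM (-1.92, -2.50 to -1.40), St3gal5 at -0.88, Ncam2 at -3.56 (-4.63 to -2.68) and Ncam1, the main polysialic acid carrier, at -0.28. Ncam2 was at -6.10 within barcode set 1 and -2.57 within set 2, and other genes with few UMIs in the members also differed between the sets, such as Cbln2 (-7.44 and -4.61), Kcnc2 (-3.36 and -1.50) and Hs3st5 (-4.31 and -2.29). Of 15 tested heparan sulfate enzymes 2 were higher and 2 lower (median 0.02), with Hs3st4 (144 against 64.5 CPM, 1.16, 1.09 to 1.23) and Hs3st1 (39.2 against 17.7 CPM, 1.15, 1.00 to 1.29) above and Ndst4 (-3.25) and Hs3st5 (-3.00) below. Of 14 tested cullin 5 and SOCS-box genes, the family of Asb4, only Socs2 was called (0.82, 0.65 to 0.98), and Cul5 stood at -0.01.

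Structural, calcium-binding and activity genes also differed, where 3.08% of all tested genes were higher and 6.9% lower. Nefl and Nefm, the light and medium neurofilament subunits, were at 29.0 against 151 CPM and 8.57 against 44.7 CPM, each at -2.38 (-2.53 to -2.23 and -2.67 to -2.11). Prph, the intermediate filament peripherin, was at 282 against 88.2 CPM (1.68, 1.63 to 1.73) and was named after its values were seen. Its level was close to this in the set chosen by Kit, Hcrtr1 and Phlda1 described below. Nefl and Nefm overlap each other on opposite strands. Of 18 tested calcium-binding proteins and nitric oxide synthase, 6 were lower, among them Necab1 (3 UMIs in the members, -5.82, -8.10 to -4.27) and Nos1 (-4.01), and Vsnl1, the calcium sensor visinin-like 1, was the only one higher (0.79, 0.77 to 0.82). Of 13 tested immediate early genes, Dusp6 (1.04) and Btg2 (0.91) were higher, Nr4a1 (-1.09) and Egr1 (-0.70) lower, and Fos stood at -0.04. Egr1 was under the fold within barcode set 2 (-0.53).

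Markers of other cell types were present at low levels in the members. Summed over each list, oligodendrocyte markers were at 77.1 CPM in the members and 62.3 CPM in the other cells, microglial markers at 32.0 and 27.1 CPM, vessel and blood markers at 1.08 and 4.36 CPM, markers of other neurons at 4.02 and 3.04 CPM, and astrocyte markers at 17.8 and 49.8 CPM. Within the barcode sets the members' sums were 75.2 and 79.2, 33.1 and 30.8, 0.739 and 1.46, 3.54 and 4.53, and 16.0 and 19.8 CPM in the same order. Olig2 and Cldn11 of the oligodendrocyte list, Tmem119, Csf1r and Trem2 of the microglial list, and Cldn5, Kdr, Tek, Rgs5 and Acta2 of the vessel list had 0 UMIs in the members. Most of the astrocyte difference lay in Slc1a2 (-2.72) and S100b (-2.48), while Gfap and Sox9 had 2 and 3 UMIs in the members. Cnp and Mbp stood at 0.45 and 0.25. The part of these cell types in the results was not tested.

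**Figure D3:**
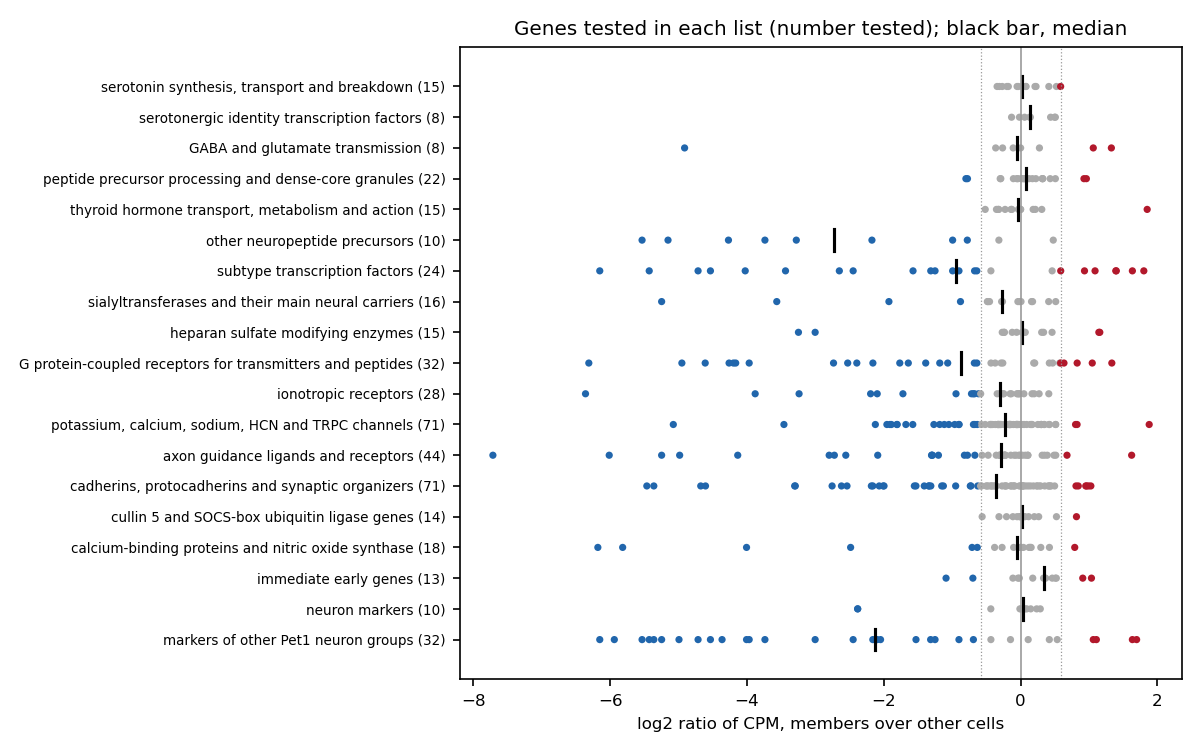
Log2 ratio of CPM in the members over the other cells (horizontal axis) for each tested gene (dots) of the lists with at least 8 genes tested, in red at 1.5-fold higher, blue at 1.5-fold lower and grey between (dotted lines mark the fold). Black bars are list medians, from -2.73 in other neuropeptide precursors to 0.34 in immediate early genes, beside 0.0023 over all genes tested.

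Along the whole score the members' genes changed by degrees. All 12 highest genes had their highest level in the members' bin when cells were taken in bins of 240 by the score. They were chosen for their ratio of this bin to all other cells, so this largely follows from the choice. From the first to the second bin Arhgap36 went from 345 to 261 CPM, Crip1 from 130 to 102 CPM, Hspb1 from 105 to 60.6 CPM and Kcns1 from 12.7 to 11.2 CPM, and Ngb from 24.3 to 9.59 CPM. Ngb was lowest in the fourth bin at 2.66 CPM and stood at 9.57 CPM in the last, where Arhgap36 stood at 61.7 CPM. Pde5a, in contrast, went down to 0 UMIs in the last bin. Lower genes mirrored this, with Ntng1 at 0.154, 1.41, 4.72 and 13.2 CPM in the first 4 bins and 58.9 CPM in the last. Slc17a8 went from 5.79 and 13.9 CPM in the first bins to 313 CPM in the eighth, and Nefl from 29.0 to 214 CPM. Gad1 and Gad2 were highest outside the members, at 100 CPM in the third bin and 185 CPM in the fourth. Tph2 stayed between 2335 and 3170 CPM throughout. The order of the cells comes from the rule, so these profiles describe the score.

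**Figure D4:**
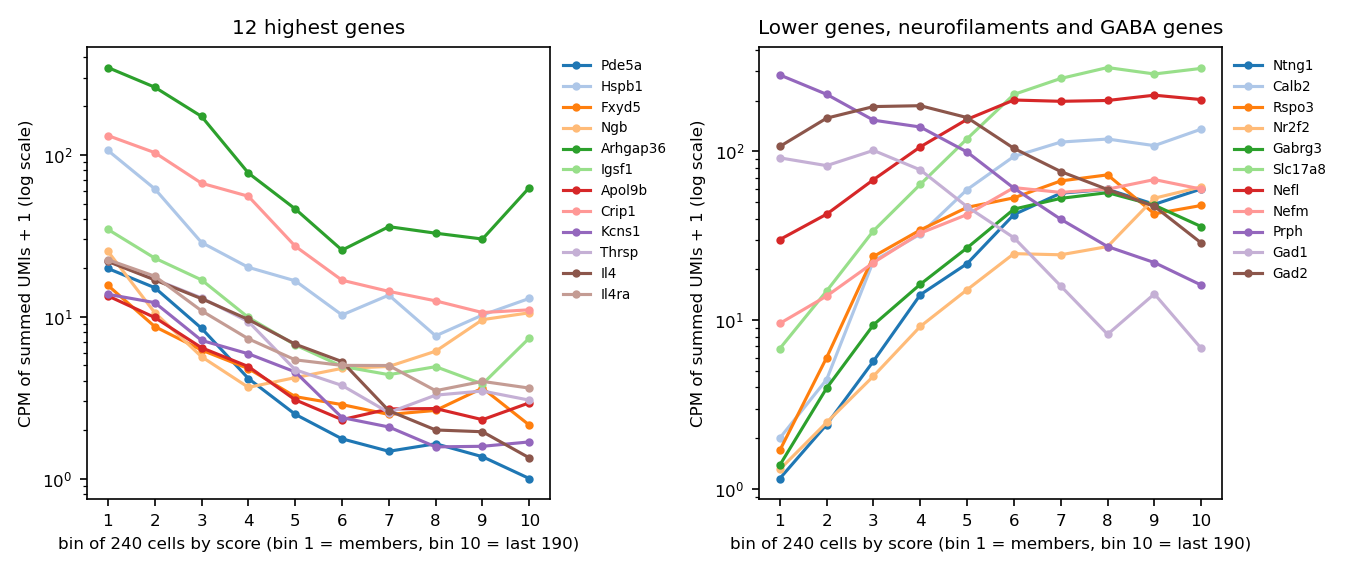
Level (CPM of summed UMIs plus 1, log axis) in bins of 240 cells ordered by the score, bin 1 being the members and bin 10 the last 190 cells. Left, the 12 highest genes, which were chosen on bin 1 and all have their top value there. Right, Gad2 is highest in bin 4 at 185 CPM, while Slc17a8 goes from 5.79 CPM in bin 1 to 313 CPM in bin 8.

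The members were also set beside 3 other sets of 240 cells chosen in the same way on other genes. The set chosen by Sox14, Vim and Prkcq shared 78 cells with the members (32.5% of each), the set by Kit, Hcrtr1 and Phlda1 shared 7 (2.92%), and the set by Pou3f2, Bcl11a and Gad1 shared 11 (4.58%), where the members are 10.2% of all cells. Shared cells and the genes of both rules were left out. Median UMIs were 54781.5 in the members kept and 60912.5 in the Sox14 set, 54840 and 67734 for the Kit set, and 54646 and 50744 for the Pou3f2 set, with 83 and 53, 120 and 78, and 122 and 72 cells from barcode set 1. Against the Sox14 set, 394 of 9555 genes were higher (4.12%) and 453 lower (4.74%) in the members by 1.5-fold. Cd24a, a membrane glycoprotein, was at 54.4 against 4.69 CPM (3.54, 3.09 to 4.01), the transcription factor Nfix at 25.8 against 2.81 CPM (3.20, 2.62 to 3.83), the glypican Gpc5 at 47.8 against 5.21 CPM (3.20, 2.77 to 3.65), Emilin2 at 20.2 against 2.40 CPM (3.08, 2.45 to 3.77) and Ngb at 24.3 against 3.54 CPM (2.78, 2.25 to 3.35). Among the lowest were Syndig1, a regulator of AMPA receptor synapses (0.457 against 24.4 CPM, -5.74, -7.62 to -4.36), Caln1 (-4.92), Tshz2 (-4.57) and the growth factor Fgf9 (-4.22).

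Against the Kit set, 489 of 10223 genes were higher (4.78%) and 457 lower (4.47%). Cd24a again led, at 47.1 against 1.44 CPM (5.03, 4.41 to 5.71), with Fjx1 (3.81), Ngb (3.59), Nell1 (3.20) and Luzp2 (3.18). The lowest were Moxd1 (-5.67, -8.73 to -3.78), Tinag (-5.53, -8.60 to -3.65), Cntn3 (-5.51), Crh (-5.21) and Cbln2 (-4.76). A difference in Slc17a8 between the members and this set was not detectable at this depth, at a log2 ratio of 0.13 (-0.34 to 0.60), while the ratios within barcode sets 1 and 2 were 0.87 and 0.28. Prph was at 284 against 252 CPM in this set (0.17, 0.11 to 0.24), and at -0.05 within barcode set 1. Its ratio was 1.08 against the Sox14 set and 2.96 against the Pou3f2 set. Against the Pou3f2 set, 478 of 10306 genes were higher (4.64%) and 944 lower (9.16%). The highest were Ctla2a (5.06, 3.48 to 7.36), Egflam (4.81), Pde5a (19.9 against 0.976 CPM, 4.35, 3.48 to 5.37), Cdc42ep5 (4.23) and Hs3st4 (151 against 8.96 CPM, 4.08, 3.79 to 4.38). The lowest were Necab1 (-8.75, -11.80 to -6.90), Zfp536 (-8.19, -13.49 to -5.69), a transcript known only by a clone name (-8.18), Ntng1 (-7.39) and Nts (-7.38). Of the 12 highest genes against all other cells, 12 were at least 1.5-fold higher against the Kit set, and 11 each against the Pou3f2 set (Thrsp at 0.34) and the Sox14 set (Pde5a at -0.29). Of the 12 genes lowest against all other cells, some were also at low levels in the sets by Kit and Sox14, with Nr2f2 at 0.722 and 1.56 CPM and Rspo3 at 0.525 and 1.15 CPM. Others were not, since the Kit set held Lats2 at 4.01 CPM (-5.66) and Crhr2 at 4.07 CPM (-4.68). In the Pou3f2 set Rspo3 was at 49.3 CPM. These sets were also chosen by values in the same cells, and no test was made.

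The members were split into the 185 cells with a Trh UMI and the 55 without. Trh is one of the genes that chose them, so cells without it entered through the other 5 genes and the counts that follow only describe the split. Of 6705 genes with 50 UMIs expected in the 55 cells, 25 were 1.5-fold higher (0.373%) and 10 lower (0.149%) in the cells with Trh. Median UMIs were 55241 and 53200, and 103 and 23 of the cells came from barcode set 1. Rprm, a cell cycle arrest mediator, was at 38.8 against 20.3 CPM (0.93, 0.53 to 1.36), and the galactosyltransferase B3galt2 at 33.5 against 17.8 CPM (0.91, 0.48 to 1.36). Ephb1 was at 14.7 against 28.7 CPM (-0.97, -1.37 to -0.56). Arhgap36 was at 309 against 472 CPM (-0.61), but only -0.12 within set 1 and -0.48 within set 2. Of the other highest genes, Ngb stood at -0.47 (-0.83 to -0.10), Il4 at -0.43 (-0.82 to -0.03), Igsf1 at -0.38 (-0.69 to -0.06) and Hspb1 at 0.23 (0.03 to 0.42), and the intervals of Thrsp (-0.02), Crip1 (-0.04), Pde5a (0.17) and Il4ra (0.44) included 0. Hspb1 was at 0.96 within set 1 and 0.06 within set 2. These genes were named after their values were seen.

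The manually sorted cells, which took no part in the choice of the 240, give the score by place. They had between 756872 and 7664103 reads on genes per cell, and the score was computed over the 70 cells with the same 6 genes. Its lowest, median and highest values were -0.38, 1.06 and 2.39 in the 10 dorsolateral Slc6a4-cre cells and -0.50, 0.28 and 2.98 in the 9 dorsomedial cells. In the 8 ventromedial cells they were -0.51, -0.40 and -0.09, and in the 6 caudal cells -0.52, -0.33 and 0.14. The medians were -0.03 in the rostral Npy2r-cre cells, -0.31 in the Crh-cre cells, -0.40 in the caudal Npy2r-cre cells and -0.57 in the P2ry1-cre cells. The groups overlapped at the low end, and 10 of the 10 highest cells were dorsolateral (7) or dorsomedial (3). Among dorsolateral cells the median was 0.14 at postnatal day 63 and 1.45 at day 90 with 5 cells each, and which cells share an animal is not given. Among dorsomedial cells it was 0.084 at day 63 (6 cells) and 0.28 at day 90 (3 cells), so the medians of the 2 places lay close together at day 63. The labels name no animal, so each group counts as 1 sample, no test was made, and the dissection decides which marked cells were sampled.

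**Figure D5:**
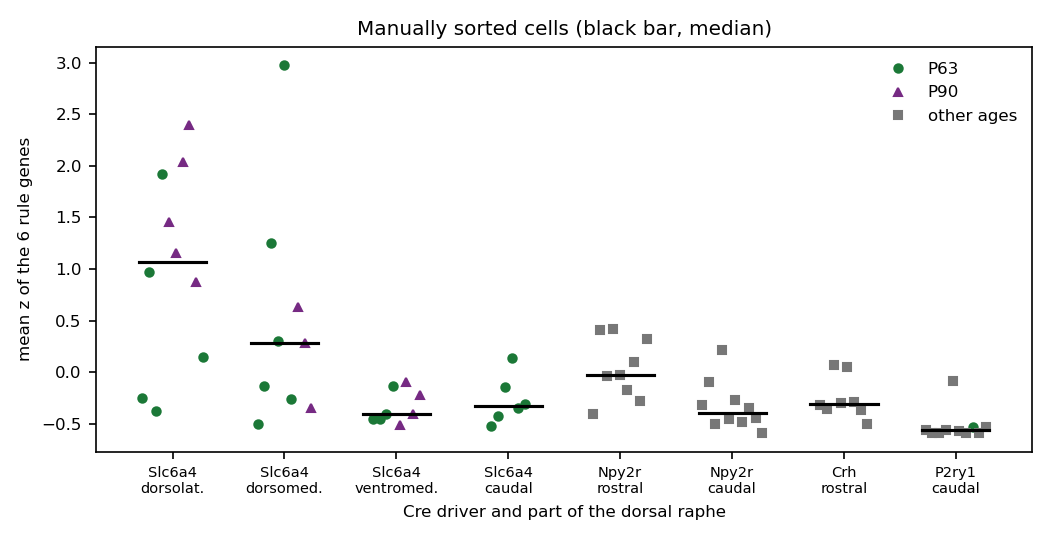
Mean z of the 6 rule genes (vertical axis) in each manually sorted cell, by Cre driver and part of the dorsal raphe, with age as colour and shape and medians as black bars. The dorsolateral and dorsomedial Slc6a4-cre groups hold the 10 highest cells, with medians of 1.06 and 0.28, and other groups stay at or below 0.42.

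Trh reads were found in 7 of 10 dorsolateral cells (0, 51.5 and 642 CPM as lowest, median and highest), 5 of 9 dorsomedial cells (highest 296 CPM), 0 of 8 ventromedial, 1 of 6 caudal, 1 of 9 and 1 of 10 Npy2r-cre, 1 of 8 Crh-cre and 0 of 10 P2ry1-cre cells. Asb4 had medians of 922 CPM in dorsolateral, 60.6 CPM in dorsomedial and 369 CPM in rostral Npy2r-cre cells, and of 0 in ventromedial and caudal cells. Crym was found in 7 of 10 dorsolateral cells (highest 437 CPM) and 4 of 9 dorsomedial cells. It was in 1 of 8 ventromedial and 1 of 6 caudal cells. Npy2r-cre cells held it in 2 of 9 rostral and 3 of 10 caudal cells (highest 245 CPM). Crh-cre cells held it in 2 of 8 and P2ry1-cre cells in 0 of 10. With 1 CPM added, its log2 ratio of dorsolateral over other Slc6a4-cre cells was -0.11 at day 63 and 3.00 at day 90. St8sia2 had a median of 65.6 CPM in dorsolateral and 15.0 CPM in dorsomedial cells. Wfdc12 was found in 10 of 10 dorsolateral cells (median 84.1 CPM) and 9 of 9 dorsomedial cells (48.0 CPM). With both ages together, Clic1 alone had a higher median in dorsomedial (48.6 CPM) than in dorsolateral cells (12.5 CPM).

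The genes called in the droplet cells were then read in the 10 dorsolateral against the 23 other Slc6a4-cre cells, with 1 CPM added to each mean and a mean of at least 10 CPM required. Over the 8416 genes measured in both experiments, 946 were 1.5-fold higher (11.2%) and 1669 lower (19.8%) in dorsolateral cells. Of the 209 genes higher in the droplet members, 122 were higher in dorsolateral cells (58.4%) and 8 lower, with a median log2 ratio of 0.69, beside -0.05 over all 8416. Of the 420 lower genes, 261 were lower (62.1%) and 19 higher, with a median of -0.80. With day 63 cells alone the shares were 47.0% of 198 and 50.6% of 443, beside 15.4% and 26.2% of all genes. With day 90 cells alone they were 66.2% of 219 and 69.6% of 385, beside 17.1% and 24.1%. Dorsomedial cells were read in the same way against the ventromedial and caudal cells, with 49.5% of 182 higher and 51.5% of 460 lower, beside 12.0% and 18.1%. Against the same ventromedial and caudal cells, dorsolateral cells gave 65.4% of 208 higher and 69.6% of 424 lower, beside 15.9% and 23.3%. Both comparisons share these reference cells.

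Of the 12 highest genes, 9 passed the filter on level in these cells. The filter takes the mean over dorsolateral and other cells together. Fxyd5, Pde5a, Thrsp, Il4ra, Igsf1 and Il4 were under 10 CPM in the other cells. They passed through the dorsolateral cells, where they were higher, so their direction was partly set by the filter. Fxyd5 had a mean of 38.4 CPM in dorsolateral against 1.05 CPM in the other Slc6a4-cre cells and reads in 6 of 10 cells, and the log2 ratio on the (CPM + 1) scale was 4.27. Pde5a was at 28.3 against 2.37 CPM (3.12), with reads in 5 of 10 dorsolateral and 3 of 9 dorsomedial cells and in 0 of the 14 ventromedial and caudal ones. A single dorsolateral cell at 226 CPM decided this value, and without it the mean was 6.31 CPM and the log2 ratio 1.12. Arhgap36 was at 555 against 79.8 CPM (2.78), Thrsp at 31.2 against 4.04 CPM (2.68), Igsf1 at 48.1 against 9.65 CPM (2.20), Crip1 at 93.2 against 19.8 CPM (2.18), Hspb1 at 47.2 against 13.1 CPM (1.78) and Il4ra at 22.3 against 7.31 CPM (1.49). The ratios differed between ages, at 1.22 among day 63 cells and 6.13 among day 90 cells for Arhgap36, 0.92 and 3.31 for Hspb1, 3.33 and 1.76 for Thrsp, and 3.73 and 1.94 for Pde5a. Il4 was at 16.2 against 9.68 CPM (0.69), but -0.20 among day 63 cells, 1.12 among day 90 cells and 0.41 without its highest cell. Without its highest cell Thrsp was at 16.2 CPM (1.77). With each gene's highest dorsolateral cell left out, Pde5a, Fxyd5 and Thrsp no longer passed the filter, and of the 6 genes that did 5 were at least 1.5-fold higher. Ngb, Kcns1 and Apol9b stood at 2.04, 0.96 and -0.50 and were under the filter, and without the highest cell at 1.39, -0.05 and -1.10. The per-cell ranges of these genes overlapped between places, and in each gene but Il4 at least 2 dorsolateral cells had 0 reads.

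Genes named after their values were seen complete the picture of the sorted cells. Nefl had medians of 38.3 CPM in dorsolateral, 71.4 CPM in dorsomedial, 178 CPM in ventromedial and 390 CPM in caudal cells, and the highest dorsolateral cell (95.7 CPM) was below the lowest caudal cell (265 CPM). Slc17a8 had reads in 3 of 10 dorsolateral and 3 of 9 dorsomedial cells, and in 6 of 8 ventromedial and 6 of 6 caudal cells, with medians of 287 and 112 CPM in the last 2 groups. Prph had medians of 337 and 290 CPM in dorsolateral and dorsomedial cells and of 2.39 and 7.44 CPM in ventromedial and caudal cells. Of the 12 lowest genes, Ntng1, Tpbg, Nr2f2, Fam114a1, Fst and Epha3 had reads in 0 of the 10 dorsolateral cells. Crhr2 had reads in 2 (highest 32.9 CPM), and Rspo3 (24.6 CPM), Uncx, Lats2, Gabrg3 and Calb2 in 1 each. Tpbg, Nr2f2, Uncx and Epha3 had reads in 0 of the 9 dorsomedial cells. In the full-length libraries reads on overlapping antisense genes, such as those beside Tpbg and Nr2f2, cannot be told apart.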

How the data were processed

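The authors deposited UMI counts for the droplet cells (10X 3' v3, Cell Ranger 3.0.2, mm10) after removing cells with few genes, glial, mitochondrial or low Fev signal and outlying totals, and read counts for the manual cells (SMART-Seq v4, STAR 2.5.4, mm10). Neither table of counts is normalized. The members and gene lists were chosen with earlier results of these data known. Levels are CPM of summed UMIs, ratios carry exact conditional 95% intervals and shares Clopper-Pearson intervals. A ratio against 0 UMIs used a floor of 3 counts. Genes needed 50 expected UMIs in the members and were called at 1.5-fold. Named genes are the 12 highest and 12 lowest ratios that keep direction in both barcode sets, up to 4 per list, and 5 at either end against each compared set. Cells were thinned to 20000 UMIs, which dropped 53. Doublets were called with Scrublet in scanpy 1.11.5 at an expected 5% and kept. No test was made, because the droplet table pools its samples with no map from cells to samples, so it counts as 1, and the labels name no animal. The ratio was tested on simulated data. Alternatives covered depth, scaling, barcode set, number of members, rule genes, filters and fold. Python 3.11.15, numpy 2.4.6, scipy 1.17.1 and pandas 2.3.3 were used. Some results are not reported here.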

Additional observations from a re-analysis of the deposited data

Results flagged for a closer look

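Within a sorted group, a single cell stood far from the others in 15 of 56 sets of values examined. The criterion is set to pick about 1 in 20 groups by chance, a rate that does not hold for groups with most cells at 0. The mean z of the 6 rule genes was 2.98 in 1 dorsomedial Slc6a4-cre cell, against 1.25 in the next, and -0.087 in 1 P2ry1-cre cell, against -0.53. On the log2 (CPM + 1) scale, Crym was 6.29 in 1 ventromedial and 5.90 in 1 caudal Slc6a4-cre cell, with all others of these groups at 0. Asb4 was 0 in 1 dorsolateral cell, 0.297 in 1 caudal Slc6a4-cre cell, 2.26 in 1 caudal Npy2r-cre cell and 5.20 in 1 P2ry1-cre cell. Trh was 0.297 in 1 caudal Slc6a4-cre cell, 3.96 in 1 rostral and 3.05 in 1 caudal Npy2r-cre cell and 3.57 in 1 Crh-cre cell, with the rest of each group at 0. Wfdc12 was 1.18 in 1 dorsolateral cell and 0 in 1 caudal Npy2r-cre cell. Clic1 was 6.97 in 1 P2ry1-cre cell. Groups with most cells at 0 meet this criterion with any single positive cell.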

How the results depend on the processing

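The count of genes higher in the members (320) became 198 with cells thinned to 20000 UMIs, where fewer genes passed the filter (8283), 644 and 145 with at least 10 and 200 expected UMIs, and 110 at 2-fold. The count of lower genes (718) became 1296, 343 and 375 under the last 3 settings. Under the other alternatives, counts stayed between 221 and 430 higher and between 485 and 785 lower. Leaving Trh out of the rule kept 197 of the 240 cells, and ranking thinned counts kept 200. Of 74 named genes past 1.5-fold, 70 kept that in all 11 settings that change a ratio and 0 changed sign. Pcbd1 (lowest 0.54), Pgpep1 (0.54), Egr1 (-0.52) and Vgf (-0.38) passed back under the fold. The number of genes higher in dorsolateral sorted cells was 999, or 1503 with day 90 cells only, and between 667 and 1415 otherwise. The mean over barcode sets and the omission of dorsomedial cells or of the highest dorsolateral cell were chosen after seeing the data. No analysis paired by animal was possible because the labels name no animal. Ratios within barcode sets and within ages are given above. Leaving out single replicates was not run, since each sorted cell is not a replicate animal.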

Other observations

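Enox2, a cell surface oxidase gene on chromosome X (start 49009707, end 49288259, minus strand), was the only higher gene of the members that went the other way in 1 barcode set. It was at 25.3 against 7.08 CPM in set 2 (log2 ratio 1.83, 1.57 to 2.09) and at 3.84 against 4.83 CPM in set 1 (-0.33, -0.98 to 0.26). Arhgap36, one of the 12 highest genes, begins on the same chromosome at 49463945 on the plus strand and was at 547 CPM in the members of set 2 and 160 CPM in those of set 1. What the sets stand for is not given, and the cause was not tested.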
